A study of Mus musculus with 14 samples.

Results

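Fibroblast growth factor (FGF) signalling starts when an FGF ligand, held on the cell surface by heparan sulphate, brings together a receptor tyrosine kinase of the Fgfr family, and the signal is passed through the adaptors Frs2 and Grb2 and a cascade of kinases to ERK. Active ERK induces its own brakes, among them the Sprouty and Spred proteins and the phosphatase Dusp6, together with the ETS transcription factors Etv4 and Etv5, so the transcripts of these genes are commonly read as a measure of pathway output. In the mouse blastocyst, FGF4 made by the epiblast drives inner cell mass cells towards primitive endoderm and sustains trophoblast stem cells.

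The expression of 10 such genes, of 19505 genes named on the array, was examined in E4.0 mouse blastocysts: the receptors Fgfr1, Fgfr2, Fgfr3 and Fgfr4, and the ERK feedback and target genes Spry2, Spry4, Dusp6, Etv4, Etv5 and Spred1. They were read by every non-control probe that carried one of these 10 gene names, which gave 24 probes on 42 spots, of 41174 gene probes on 43379 spots of the array. The 14 samples comprised 4 SCNT-derived blastocysts made from cumulus cells by cell fusion (fusion clones), 4 made from cumulus cells by injection of the nucleus (injection clones), and IVF-derived controls, 3 male and 3 female. The labels give all clones as female, all embryos as blastocysts cultured in KSOM medium, and no strain. The study's methods describe a BDF1 background and donors heterozygous for an Xist knockout, but do not state whether the donors of these blastocysts carried that allele. Whether each RNA came from 1 blastocyst is likewise not stated for these samples, and p-values measure the spread between these samples only.

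Values are log2 of processed Cy3 intensity after quantile normalization of the 14 arrays, with a floor of 16, which is 4.0 on the log2 scale. Where several probes read a gene, the brightest over the 14 arrays stands for it. A difference was called where limma's moderated test gave a Benjamini-Hochberg adjusted p below 0.05 over all probes tested in that comparison. Levels of different probes are not comparable with each other, and each test sets a probe only against itself on other arrays. Words such as dim and bright are rough descriptions of a probe's signal. Means and sums over a list of genes join different probes, and in sums the brightest probes weigh most.

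The 4 groups lay on 4 different slides, and the clone slides were scanned on another scanner and read with another software version than the IVF slides, so that slide and group cannot be told apart. The IVF arrays held 6790 to 9981 processed intensities below 0 each and the clone arrays 0. Between 57.4% and 65.2% of spots were well above background, fewest in fusion clone 4. The spike-in controls had a median signal between 9615 and 27592 on each clone array, but only between 7.22 and 16.2 on each array of IVF embryos.

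Among the receptors, Fgfr2 read higher in clones than in female IVF embryos at its brightest probe without passing the test, Fgfr1 read lower, and Fgfr3 and Fgfr4 overlapped between the groups. None of the 4 receptors was called at its brightest probe in fusion clones against female IVF embryos, or in injection clones against the same 3 female embryos. Over all probes tested, 9.49% were called in the first comparison, 4.32% higher and 5.17% lower, and 3.67% in the second, of which those lower made up 2.14%. By limma at an unadjusted p below 0.05, 1 receptor passed in each, Fgfr2 in fusion clones and Fgfr1 in injection clones, where 27.2% and 23.2% of all tested probes passed. The median difference of the 4 receptors was 0.084 in fusion clones and −0.12 in injection clones, beside −0.12 and −0.075 over all probes tested.

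**Figure D1:**
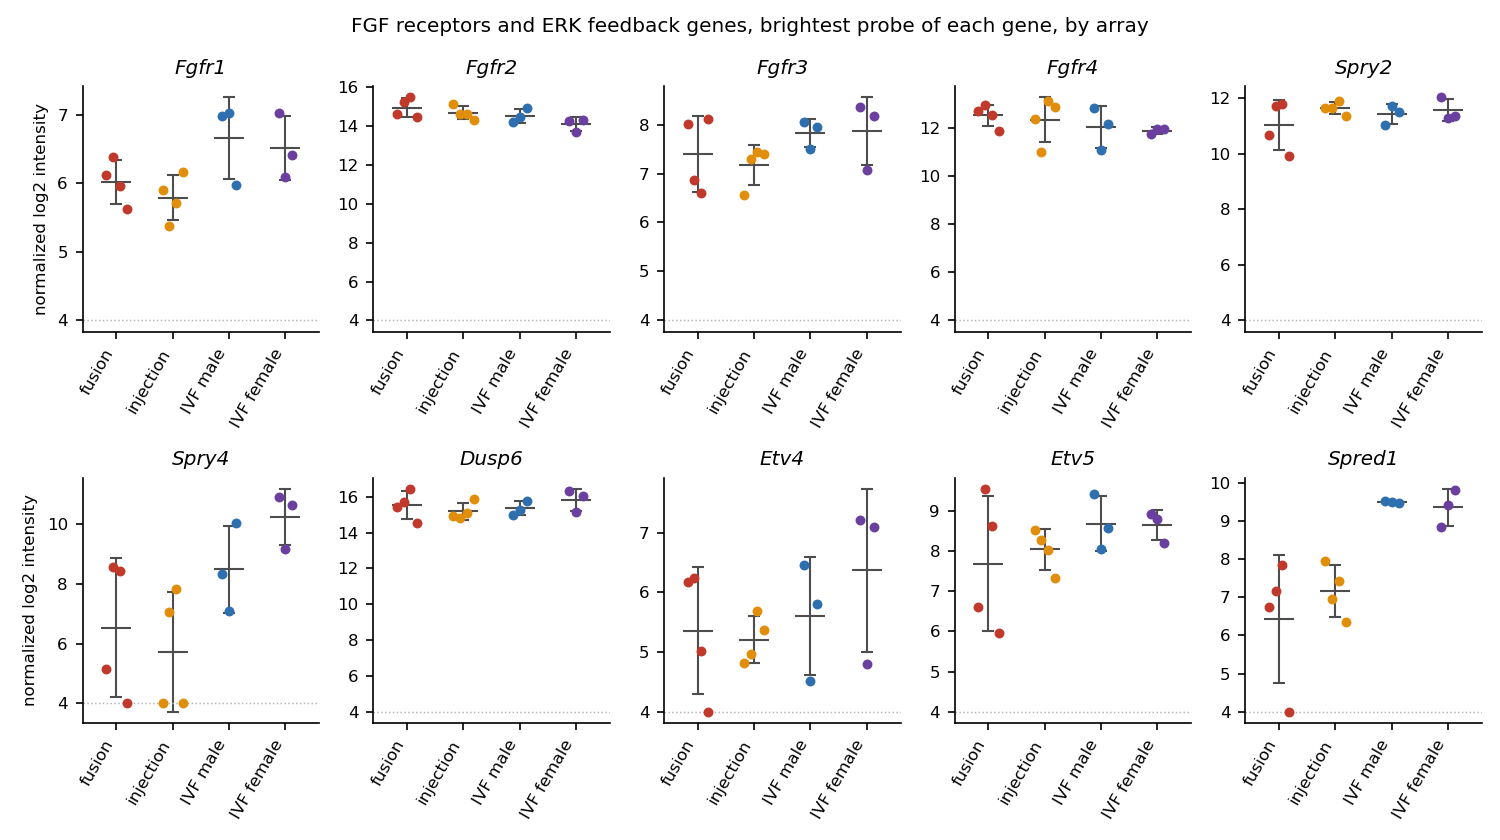
Normalized log2 intensity (vertical axis, a separate scale per gene, dotted line at the floor of 4.0) of the brightest probe of each of the 10 genes in blastocysts of the 4 groups, in the order fusion, injection, male IVF and female IVF. Each point is 1 array and the bars show the mean and SD. Spred1 lay between 8.83 and 9.80 in the 6 IVF embryos and between 4.0 and 7.94 in the 8 clones, whereas Dusp6 overlapped in all groups.

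Fgfr1, a receptor of the epiblast and primitive endoderm, was a dim transcript at its brightest probe. Its level was 6.12, 6.39, 5.96 and 5.62 in the fusion clones and 5.91, 5.38, 5.71 and 6.16 in the injection clones. It was 7.02, 6.10 and 6.42 in the female and 6.98, 7.03 and 5.97 in the male IVF embryos. The 8 clones ranged from 5.38 to 6.39 and the 6 IVF embryos from 5.97 to 7.03, with overlap in each comparison. The difference from female IVF embryos was −0.49 ± 0.29 (SE, n = 4 and 3, limma adjusted p = 0.339) for fusion clones and −0.72 ± 0.29 (n = 4 and 3, limma adjusted p = 0.207) for injection clones.

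A second Fgfr1 probe, A_52_P668810, is placed by the files 21 bases from the brightest one, so the probes read nearly the same stretch of the transcript. Its level was 5.08, 5.73, 5.08 and 5.11 in fusion clones and 4.99, 5.18, 5.24 and 5.38 in injection clones, against 6.86, 6.05 and 6.34 in female and 6.14, 6.75 and 5.74 in male IVF embryos. All 8 clones lay below all 6 IVF embryos. The probe fell by 1.16 ± 0.28 on the log2 scale in fusion clones (limma adjusted p = 0.0492) and by 1.22 ± 0.23 in injection clones (limma adjusted p = 0.0464). Both calls lie close to the threshold. They were lost in 15 of 18 and 13 of 18 other settings. In fusion clones the call was lost whichever array was left out, and in injection clones whichever was left out except female embryo 2. With background correction by normexp the differences were −0.55 and −0.53. Intensities below 0 were found on IVF arrays only, and their part in the difference at this dim probe was not tested. The remaining 2 Fgfr1 probes lie 3.88 and 41.6 kb from the brightest by the given coordinates. The nearer of them stayed within background on all 14 arrays. The farther, A_52_P552062, differed by −0.057 ± 0.57 in fusion clones and −0.11 ± 0.62 in injection clones (limma adjusted p = 0.959 and 0.936). It read close to the floor, with means of 4.59 in fusion clones, 4.54 in injection clones and 4.65 in female embryos.

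Fgfr2 is the receptor of the trophectoderm, and also of the early primitive endoderm. At its brightest probe it read 14.63, 15.26, 15.50 and 14.47 in fusion clones and 15.15, 14.65, 14.61 and 14.34 in injection clones. The female IVF embryos read 14.29, 13.72 and 14.35 and the male ones 14.21, 14.47 and 14.94. Every fusion clone lay above every female IVF embryo, whereas the injection clones overlapped with them by a narrow margin and both kinds of clone overlapped with the males. The difference from female IVF embryos was 0.84 ± 0.33 (SE, n = 4 and 3, limma adjusted p = 0.159) in fusion clones and 0.57 ± 0.26 (n = 4 and 3, limma adjusted p = 0.251) in injection clones.

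The 3 probes of Fgfr2 disagreed in direction. Probe A_52_P158800, which the files place 129 kb from the other probes of this gene, rose by 1.29 ± 0.28 in fusion clones (limma adjusted p = 0.0392). It read 9.45, 10.29, 9.76 and 10.39 in fusion clones and 9.14, 9.81, 9.86 and 9.51 in injection clones, all above the 8.86, 8.47 and 8.71 of female IVF embryos. The male embryos spread from 6.60 to 9.46 and reached into the clones' range. The difference for injection clones was 0.90 ± 0.22 and did not pass (limma adjusted p = 0.0793), and the call in fusion clones was lost in 11 of 18 other settings, among them those without fusion clone 2, 3 or 4 or any female embryo. In contrast, probe A_51_P432403, 0.743 kb from the brightest probe, differed by −0.41 ± 0.28 and −0.86 ± 0.31 from female IVF embryos (limma adjusted p = 0.401 and 0.170).

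**Figure D2:**
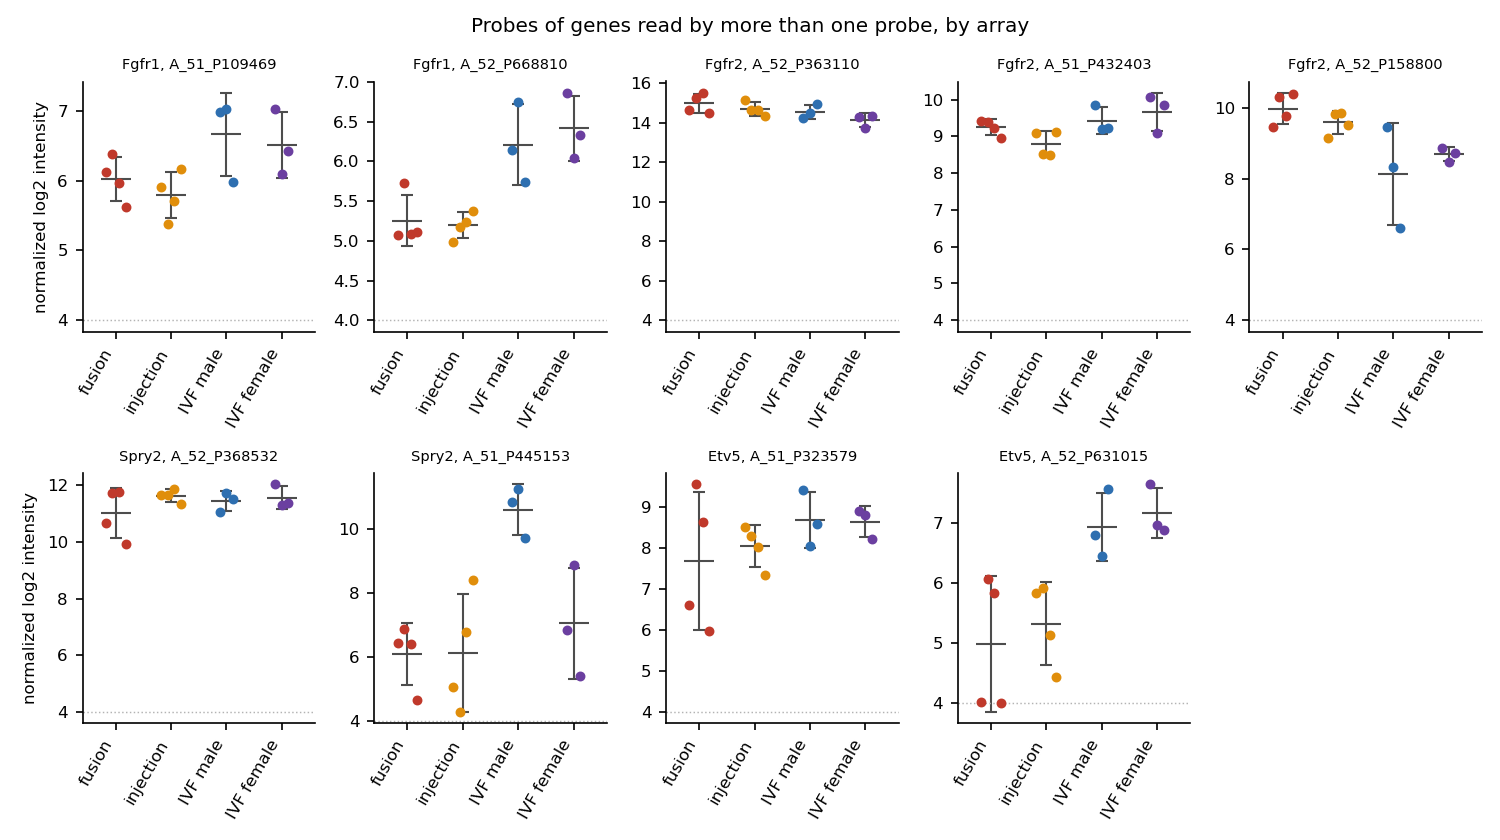
Normalized log2 intensity by array for the probes of Fgfr1, Fgfr2, Spry2 and Etv5, with 1 panel per probe, points for arrays and bars for the mean and SD. Fgfr1 probe A_52_P668810 and Etv5 probe A_52_P631015 separated the 8 clones from the 6 IVF embryos, the 3 Fgfr2 probes moved in different directions, and Spry2 probe A_51_P445153 was highest in male IVF embryos.

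Fgfr3 ranged from 6.61 to 8.11 in fusion clones, 6.56 to 7.45 in injection clones, 7.50 to 8.04 in male and 7.07 to 8.35 in female IVF embryos. The groups overlapped, and the differences from female embryos were −0.46 and −0.69 (limma adjusted p = 0.576 and 0.350). Fgfr4 ranged from 11.91 to 12.99 in fusion clones and from 11.04 to 13.14 in injection clones, beside 11.12 to 12.84 in male and 11.76 to 11.99 in female IVF embryos. Its differences from female embryos were 0.63 and 0.46 (limma adjusted p = 0.204 and 0.606). Injection clone 2 had the lowest Fgfr4 level of all 14 arrays.

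Of the 6 ERK feedback and target genes, Spry4 and Spred1 were lower in clones than in female IVF embryos by several fold in both comparisons. Neither passed the adjusted threshold. For both genes the groups did not overlap, as at 25.8% of all tested probes in fusion clones and 20.9% in injection clones. None of the 6 was called in either comparison. At an unadjusted p below 0.05 with at least a 2-fold difference, both passed in each comparison, as did 17% and 14% of all tested probes. The median difference of the 6 genes was −0.98 in fusion clones and −0.90 in injection clones, beside −0.12 and −0.075 over all tested probes. All 6 differences were below 0 in fusion clones and 5 of 6 in injection clones. In whole blastocysts, fewer cells of a type and less RNA per cell cannot be told apart.

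Spry4, a Sprouty protein induced by FGF that limits Ras activation, varied most. Its level was 5.14, 8.56, 8.44 and 4.0 in fusion clones and 4.0, 7.06, 7.82 and 4.01 in injection clones. It was 10.91, 9.15 and 10.62 in female and 8.31, 7.10 and 10.01 in male IVF embryos. All 8 clones lay below the 3 female embryos, but 3 of them reached into the range of the males. In both kinds of clone 2 embryos read 5.14 or less and 2 read 7.06 or more. The difference from female embryos was −3.69 ± 1.27 (SE, n = 4 and 3, limma adjusted p = 0.123) in fusion clones and −4.50 ± 1.15 (n = 4 and 3, limma adjusted p = 0.0841) in injection clones. The injection difference was called with normexp background correction and with the strict filter. The other Spry4 probe, A_51_P250422, was at the floor on all 14 arrays.

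Spred1, which holds neurofibromin at the membrane to switch off Ras, had the most uniform IVF values. They were 8.83, 9.42 and 9.80 in female and 9.51, 9.49 and 9.46 in male embryos. The fusion clones had 6.74, 7.16, 7.83 and 4.0 and the injection clones 7.94, 6.95, 7.43 and 6.35. The groups did not overlap, a pattern that 25.8% of all tested probes showed in fusion clones against female embryos and 20.9% in injection clones. The differences were −2.92 ± 0.91 (SE, n = 4 and 3, limma adjusted p = 0.0973) and −2.19 ± 0.43 (n = 4 and 3, limma adjusted p = 0.0524). Without fusion clone 4, which was at the floor, the fusion difference was −2.10 with an adjusted p of 0.0481. With all 6 IVF embryos as controls the differences were −2.99 and −2.26 and both were called (limma adjusted p = 0.0197 and 0.00626). The other 2 Spred1 probes, 4.79 and 10.1 kb away in the files' coordinates, were well above background on no fusion clone or female embryo.

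Etv5, an ETS factor induced by FGF, was read by a pair of probes 1.03 kb apart that differed in how far they separated the groups. The brightest read 6.59, 9.54, 8.62 and 5.97 in fusion clones, 8.51, 8.28, 8.02 and 7.33 in injection clones, 9.41, 8.04 and 8.58 in male and 8.91, 8.80 and 8.21 in female IVF embryos. Fusion clones 1 and 4 lay below all other arrays, and fusion clone 2 above all. The differences from female embryos were −0.95 ± 0.90 and −0.60 ± 0.33 (limma adjusted p = 0.525 and 0.344). At probe A_52_P631015 the clones ranged from 4.0 to 6.08 and the IVF embryos from 6.45 to 7.64, without overlap. The differences there were −2.18 ± 0.62 and −1.83 ± 0.42, and neither passed (limma adjusted p = 0.0787 and 0.0690). Over the other settings they were called in 4 of 18 and 3 of 18.

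Etv4, the related ETS factor, was dim, with 4.0 to 6.24 in fusion clones, 4.81 to 5.69 in injection clones, 4.52 to 6.46 in male and 4.80 to 7.21 in female IVF embryos. Female embryo 2 was within the clones' range while the other 2 females lay above every clone. The differences were −1.01 ± 0.81 and −1.16 ± 0.64 (limma adjusted p = 0.461 and 0.337), and without female embryo 2 that of injection clones was −1.95 and was called (limma adjusted p = 0.0446).

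Dusp6, the cytoplasmic phosphatase that removes the activating phosphates from ERK, was bright in every group and overlapped throughout. It ranged from 14.55 to 16.42 in fusion clones, 14.81 to 15.89 in injection clones, 15.00 to 15.77 in male and 15.13 to 16.31 in female IVF embryos. The differences were −0.30 ± 0.50 and −0.64 ± 0.39 (limma adjusted p = 0.711 and 0.386), with 95% intervals of −1.49 to 0.90 and −1.59 to 0.30. Spry2, another Sprouty inhibitor, overlapped too at its brightest probe, with 9.91 to 11.78 in fusion clones, 11.35 to 11.88 in injection clones and 11.05 to 12.03 in IVF embryos. Fusion clones 1 and 4 were the lowest of the 14 arrays. The Spry2 differences were −0.55 ± 0.51 and 0.068 ± 0.24 (limma adjusted p = 0.527 and 0.882).

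**Figure D3:**
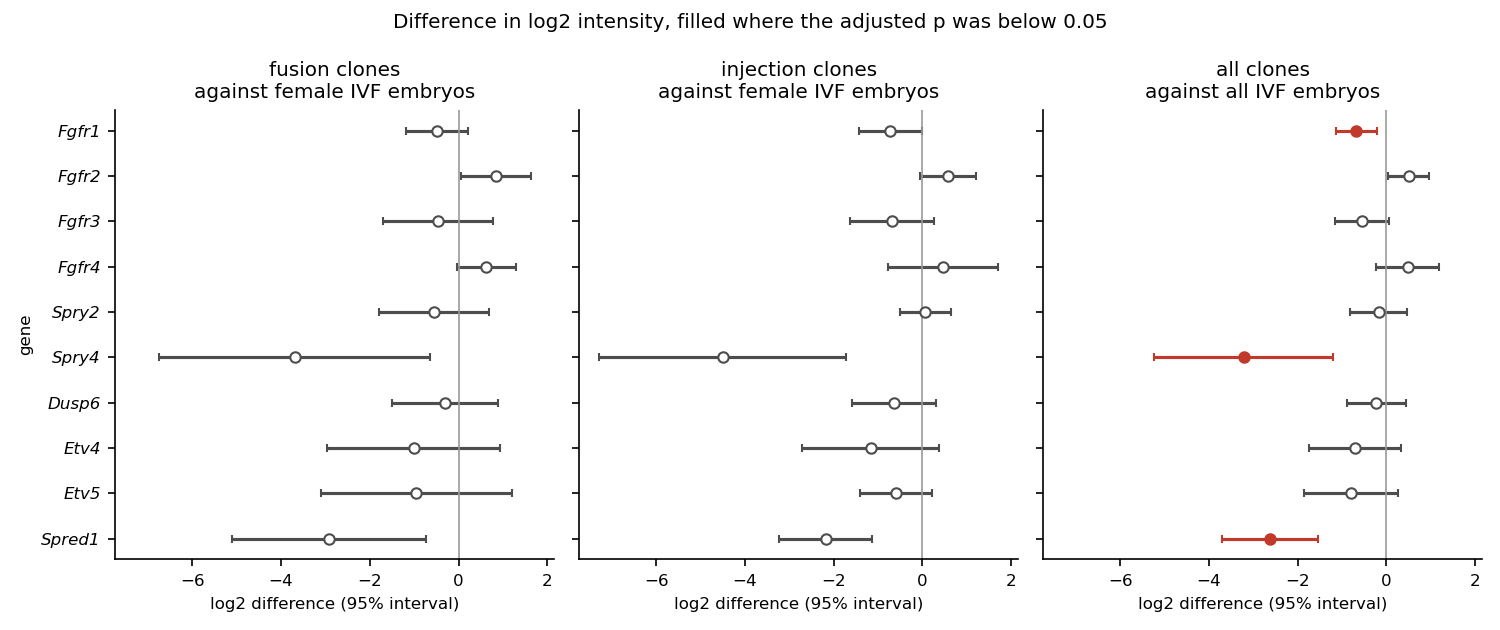
Log2 difference (horizontal axis, with the 95% interval of limma's fit) at the brightest probe of each gene for fusion clones and injection clones against the same 3 female IVF embryos, and for all 8 clones against all 6 IVF embryos. Filled red points had an adjusted p below 0.05, which were Fgfr1, Spry4 and Spred1 in the last comparison and no gene in the others.

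The Spry2 probes did not read alike. Probe A_51_P445153, 0.516 kb from the brightest in the files' coordinates, read 10.84, 11.22 and 9.69 in male IVF embryos and 6.85, 8.87 and 5.41 in female ones, so the sexes did not overlap. They did not overlap at 12.8% of all tested probes. The difference was 3.54 ± 0.95 (SE, n = 3 and 3, limma adjusted p = 0.514), whereas at the brightest probe it was −0.13 ± 0.33. At the second probe the fusion clones read 6.42, 6.88, 6.39 and 4.66 and the injection clones 5.06, 4.29, 6.78 and 8.40, which overlapped with female embryos and lay below all males.

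In male against female IVF embryos, none of the 10 genes was called at its brightest probe and 0 passed limma at an unadjusted p below 0.05. Over all probes tested, 0.0593% were called and 7.76% passed the unadjusted threshold. The differences ran from −1.75 for Spry4 to 0.42 for Fgfr2. In fusion against injection clones, again 0 of 10 were called and 0 passed at an unadjusted p below 0.05, where 0% of all probes were called by limma and 6.17% passed unadjusted. The differences ran from −0.73 for Spred1 to 0.81 for Spry4, and these 2 had 95% intervals of −2.71 to 1.25 and −2.52 to 4.14, so the number of arrays left several-fold differences between the methods of cloning undetectable.

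When all 8 clones were set against all 6 IVF embryos, a comparison chosen after the data were seen, 3 of the 10 genes were called, all lower in clones. Over all tested probes 20.6% were called, 8.38% higher and 12.2% lower. Spred1 fell by 2.62 ± 0.50 on the log2 scale, a 6.15-fold difference (SE, n = 8 and 6, limma adjusted p = 0.00299), and remained called in all 24 other settings. Its size depended on the setting, from −3.12 with a floor of 1 to −0.85 with the 3 Spred1 probes averaged. Spry4 fell by 3.22 ± 0.94 (limma adjusted p = 0.0272), and its call was lost in 4 of 24 settings, without fusion clone 1, male embryo 3, female embryo 1 or female embryo 3. Fgfr1 fell by 0.68 ± 0.21 (limma adjusted p = 0.0379), and its call was lost in 14 of 24, among them scaling by the 75th percentile, the replicate number as a block (limma adjusted p = 0.0649) and those without fusion clone 3 or 4, injection clone 1, 2 or 3, male embryo 1 or 2, or female embryo 1 or 3. This comparison uses the same embryos as those above and is not independent of them.

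Among the other probes of these genes in the pooled comparison, Fgfr1 probe A_52_P668810 fell by 1.09 ± 0.18 (limma adjusted p = 0.00119) and Etv5 probe A_52_P631015 fell by 1.89 ± 0.38 (limma adjusted p = 0.00404), both without overlap between clones and IVF embryos. A pattern without overlap was shown by 6.28% of all tested probes. Fgfr2 probe A_52_P158800 rose by 1.37 ± 0.36 (limma adjusted p = 0.0172), with overlap through male embryo 1. With the replicate number as a block this call was lost (limma adjusted p = 0.0516).

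Receptor and target levels were then compared within each embryo, as the mean log2 difference from the average of the 6 IVF embryos. The receptors stayed within −0.60 to 0.33 on all 14 arrays. The targets were −1.62, −0.26, −0.40 and −3.01 in the fusion clones and −1.44, −1.13, −0.76 and −1.70 in the injection clones. They were 0.62, −0.32 and 0.44 in female and −0.13, −0.72 and 0.11 in male IVF embryos. The difference of targets minus receptors was below 0 in all 8 clones, from −2.85 to −0.37, and ran from 0.15 to 0.45 in the female and from −0.57 to 0.037 in the male IVF embryos. Clones and females did not overlap by this measure, but fusion clones 2 and 3 and injection clone 2 lay within the range of the males. Spry4 and Spred1 had the largest differences of the 6 genes in all 3 comparisons of clones with IVF embryos, so they weigh most in these means. Both were below 0 in all 8 clones, which the other 4 targets were not. In fusion clone 2, Spry2, Dusp6, Etv4 and Etv5 were 0.23, 0.12, 0.25 and 0.89, beside −0.79 for Spry4 and −2.26 for Spred1. In fusion clone 4 the same 4 genes were −1.59, −1.03, −1.99 and −2.69. The measure therefore does not show a fall of all targets in every clone.

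**Figure D4:**
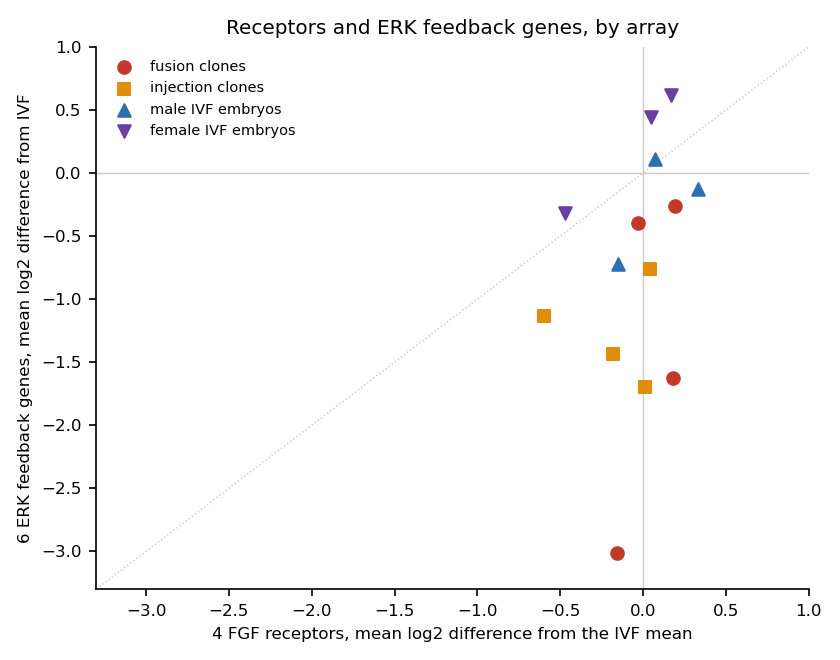
Mean log2 difference from the average of the 6 IVF embryos for the 4 receptors (horizontal axis) and the 6 ERK feedback genes (vertical axis), at the brightest probe of each gene, with 1 point per array and a dotted line where both are equal. Receptors stayed within −0.60 to 0.33, and targets reached −3.01 in fusion clone 4 and −1.70 in injection clone 4.

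Markers of the primitive endoderm had a lower mean level in the clones than in the IVF embryos. The mean log2 level of 12 such markers was 10.47, 11.92, 11.63 and 8.67 in the fusion clones and 9.76, 9.74, 11.68 and 10.47 in the injection clones. It was 13.62, 13.01 and 13.91 in female and 12.66, 11.95 and 13.67 in male IVF embryos. All 8 clones lay below all 6 IVF embryos, and fusion clone 4 was lowest in these markers as in the target genes. That array was also the lowest of the 14 in epiblast markers (12.88) and in the other ERK-responsive genes (8.23), but not in trophectoderm markers (14.41). It had the fewest spots well above background (57.4%), and 3 of its 6 target genes were well above background. The summed signal of the 12 markers was 180765 to 280511 in fusion clones, 163451 to 226308 in injection clones, 228591 to 392109 in male and 281962 to 425641 in female IVF embryos. Of the 12 markers, 8 to 11 were well above background on a clone array and 11 or 12 on an IVF array, and the mean level of Foxa2 in clones was that of the floor. Within the injection clones the order differed. Injection clone 4 was lowest in the target genes (−1.70) with markers at 10.47, and injection clone 2 was lowest in the markers (9.74) with targets at −1.13. The part of these markers in the lower readings of Spry4 and Spred1 was not tested.

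Of the 12 primitive endoderm markers, 3 were called lower in fusion clones (Sox7, Foxa2 and Cubn) and 2 in injection clones (Foxa2 and Lama1). Over all tested probes, 5.17% and 2.14% were called lower. The medians over the list were −2.46 and −2.61. The call of Sox7 was lost without fusion clone 3 or female embryo 3, that of Cubn without fusion clone 1, 2 or 3 or any female embryo, and that of Lama1 whichever array was left out. Foxa2, a transcription factor of the endoderm, was well above background on none of the 4 fusion clones, which all read at the floor and so had no spread. Its difference from female IVF embryos was −7.19 (limma adjusted p = 8.29e-05). It ran from −10.69 to −5.12 over the settings, so its size depends on the processing. Gata6, the earliest of the lineage's regulators, was bright in both clones and IVF embryos, with means of 16.25 and 15.99. The lists of epiblast and trophectoderm markers had medians of −0.12 and −0.0055 in fusion clones and −0.098 and −0.045 in injection clones. Elf5, a trophoblast stem cell factor, was the only trophectoderm marker called in fusion clones, where it fell by 2.96 (limma adjusted p = 0.0160), and Zfp42 the only epiblast marker called in injection clones, where it rose by 0.93 (limma adjusted p = 0.0437), a call lost whichever array was left out. In the pooled comparison of all clones and all IVF embryos, 7 of 12 primitive endoderm markers were called lower. Of 10 trophectoderm markers, 4 were called lower (Cdx2, Elf5, Krt7 and Krt18) and 1 higher (Hand1). Of 8 epiblast markers, 2 were called higher (Nanog and Zfp42). Over all tested probes in that comparison, 12.2% were called lower and 8.38% higher. Medians near 0 do not show that the other lineages read alike. Their part in the differences of the 10 genes was not tested. The mean of the epiblast markers lay between 12.88 and 14.06 on all arrays, that of the trophectoderm markers between 13.58 and 14.51, and that of 13 markers of cumulus cells between 4.67 and 5.73.

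**Figure D5:**
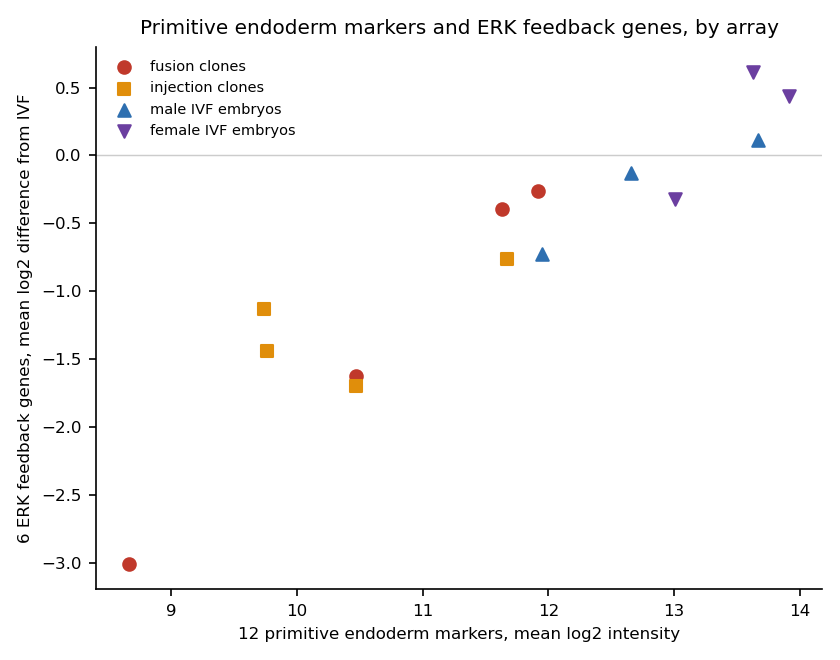
Mean log2 intensity of 12 primitive endoderm markers (horizontal axis) and mean log2 difference of the 6 ERK feedback genes from the average of the 6 IVF embryos (vertical axis), with 1 point per array. The 8 clones lie at 8.67 to 11.92 on the horizontal axis and the 6 IVF embryos at 11.95 to 13.91, and fusion clone 4 is lowest on both axes.

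Over 6 further lists of the pathway, of which 88 genes were tested in fusion clones against female IVF embryos, 3 were called higher and 3 lower, beside 9.49% called over all tested probes. In injection clones 1 of 88 was called higher and 4 lower, beside 3.67% over all tested probes. The total of 6 in fusion clones was 2 without fusion clone 3. The total of 5 in injection clones was 0 without injection clone 2, 1 without injection clone 3 or female embryo 1, and 2 without injection clone 1 or female embryo 2 or 3. Mapk3, which encodes an ERK kinase, fell by 1.49 in fusion clones and by 1.31 in injection clones (limma adjusted p = 0.0235 and 0.0265). It was the only one of 24 genes of the relay from receptor to ERK that was called in either comparison, and it was called in 13 and 10 of 19 other settings. Its call was lost in fusion clones without fusion clone 2 or 3 or any female embryo, and in injection clones without injection clone 1, 2 or 3 or female embryo 1 or 3.

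Among ligands, Fgf4 was not analysed here. Fgf5, an epiblast ligand of the implanting embryo, was at the floor on all 14 arrays. None of 13 tested ligands was called in fusion clones and none of 14 in injection clones. Of 15 co-receptors and heparan sulphate genes, Klb, the co-receptor of the endocrine FGFs, fell by 1.87 in fusion clones and by 1.50 in injection clones (limma adjusted p = 0.0346 and 0.0452). Sdc4, a heparan sulphate proteoglycan, rose by 1.45 in fusion clones (limma adjusted p = 0.00828), and Hs2st1, a heparan sulphate sulphotransferase, rose by 0.84 in injection clones (limma adjusted p = 0.0424). The Klb call was lost in fusion clones without any fusion clone or female embryo 1 or 3, and in injection clones without injection clone 1, 2 or 3 or any female embryo. That of Hs2st1 was lost whichever array was left out, while Sdc4 remained called in 18 of 19 settings.

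Of 7 inhibitors and repressors of the pathway, Cbl, a ubiquitin ligase of receptor tyrosine kinases, and Nf1, the Ras-GTPase activating protein that Spred1 recruits, rose by 4.32 and 5.23 in fusion clones (limma adjusted p = 0.0357 and 0.00623), and none was called in injection clones. Nf1 remained called in 18 of 19 settings, and Cbl was lost without any fusion clone or female embryo 2. The difference between the 2 kinds of clone was not called for any of these genes. Of the other ERK-responsive genes, none of 19 was called in fusion clones, and in injection clones Ccnd1 (cyclin D1) fell by 3.80 and Spred2 fell by 0.86 (limma adjusted p = 0.0164 and 0.0402). The Spred2 call was lost whichever array was left out and that of Ccnd1 without injection clone 2 or 3. The median over that list was −0.76 in fusion clones and −0.86 in injection clones. Of 10 other receptor tyrosine kinases, Met, the receptor of hepatocyte growth factor, fell by 2.86 in fusion clones (limma adjusted p = 0.0185), a call lost without fusion clone 1 or 3.

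In the pooled comparison of 8 clones and 6 IVF embryos, 28 of 91 tested pathway genes outside the 10 were called, 11 higher and 17 lower, where 20.6% of all tested probes were called, 8.38% higher and 12.2% lower. In the relay, Gab1 rose by 1.45 and Rps6ka3 rose by 1.13, while Mapk3 fell by 1.42 and Frs3, an adaptor related to Frs2, fell by 1.26. Among ERK-responsive genes, Myc fell by 4.25 and Etv1, the third member of the Etv4 and Etv5 family, fell by 3.62. Egr1 and Fos, immediate early genes of ERK that were singled out after their values were seen, did not pass, with differences of 1.80 and 2.48 (limma adjusted p = 0.211 and 0.0616). Of 16 tested ligands Fgf3 fell by 2.30 and Fgf14 fell by 1.05.

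The sequences before the start sites of the target genes are shown because Capicua, a repressor that ERK relieves, is known to bind an octamer that begins with TGAATG in genes of this group, and ETS factors bind CCGGAA. RefSeq windows (GRCm38.p6) were examined for 7 of the 10 genes, 9 windows in all. Some chromosomes were left out when windows of these genes were taken. Fgfr1, Spry4 and Etv4 have no window here. Whether the chromosomes left out account for each of these genes, or whether the reference lacks a window, was not examined. In the 250 bases before each start, on either strand, TGAATG was present in 10.9% and CCGGAA in 12% of all 32851 windows. TGAATG was found 3 times in 1 of the 2 Etv5 windows and once in that of Dusp6, and CCGGAA once in that of Fgfr4. Only TGAATG was searched for and not the whole octamer, so a match is not by itself a Capicua site. Read in the direction of TGAATG, the next 2 bases were GG at each Etv5 match and AC in Dusp6. A match is a description of letters and not of binding. The windows of Etv5 (chr16:22438369-22438618, minus strand), Dusp6 (chr10:99262981-99263230, plus strand) and Spred1 (chr2:117120821-117121070, plus strand) follow, written along the gene's strand with each TGAATG, in either orientation, in capitals.
Etv5: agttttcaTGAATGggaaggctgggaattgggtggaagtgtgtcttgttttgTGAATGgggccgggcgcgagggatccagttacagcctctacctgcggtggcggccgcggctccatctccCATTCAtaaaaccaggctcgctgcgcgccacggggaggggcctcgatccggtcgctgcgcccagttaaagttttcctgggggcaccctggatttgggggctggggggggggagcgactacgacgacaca
Dusp6: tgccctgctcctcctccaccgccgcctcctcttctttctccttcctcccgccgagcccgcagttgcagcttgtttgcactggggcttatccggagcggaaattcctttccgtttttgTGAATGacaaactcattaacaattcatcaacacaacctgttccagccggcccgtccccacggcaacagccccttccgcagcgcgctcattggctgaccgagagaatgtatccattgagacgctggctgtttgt
Spred1: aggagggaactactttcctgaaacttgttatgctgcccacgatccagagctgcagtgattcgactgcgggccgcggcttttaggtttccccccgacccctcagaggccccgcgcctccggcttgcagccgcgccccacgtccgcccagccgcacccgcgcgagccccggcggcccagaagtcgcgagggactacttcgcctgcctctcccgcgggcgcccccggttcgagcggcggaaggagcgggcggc
In the pooled comparison Spred1 and the second Etv5 probe were called. Dusp6 was not, and neither was Etv5 at its brightest probe (−0.80, limma adjusted p = 0.284).

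Over the 14 arrays, the genes whose levels ran most like those of the members, among 10692 or 10693 candidate genes, differed from member to member. Spry4 ran closest to Uggt2 and Il6st (Pearson r = 0.92 for both) and Spred1 to Apoc2 and Septin9 (r = 0.93 and 0.92). Within the 8 clones and the 6 IVF embryos taken apart, r was 0.87 and 0.86 for Spry4 with Uggt2, but 0.88 and 0.27 for Spred1 with Apoc2. Dusp6 ran closest to Cd24a (r = 0.90, with 0.97 in clones and 0.93 in IVF embryos), Fgfr3 to Unc13b (r = 0.91) and Fgfr2 to Crkl, an adaptor protein (r = 0.88). These values are descriptions over arrays that share slides and normalization.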

How the data were processed

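The authors hybridised Cy3-labelled, amplified RNA from 14 samples to 1-colour Agilent mouse arrays and deposited the scanner output, whose processed intensity is background-subtracted by Feature Extraction (version 10.5.1 in the submitters' notes), together with a table of log2 values whose centring is not stated and which was used as an alternative only. Processed intensities were quantile-normalized over 14 arrays, control spots and outlier spots left out, floored at 16, and averaged per probe after taking log2. Groups were compared pairwise with limma 3.58.1 in R 4.3.3 over the probes that exceeded background on 1 or more of the arrays being compared, with Benjamini-Hochberg adjustment over those probes. The test was checked on simulated data. The 10 members, the gene lists and the tests were chosen with earlier results of these data known. Of the pathway lists, at most 3 called genes per direction were named, by size of difference; some genes are not reported here. In male and female IVF embryos, same-numbered samples deviated together (r = 0.109, 0.129 and 0.110). The values reported above for that comparison do not take the numbers as pairs, and the replicate was fitted as a block only as an alternative. With the replicate as a block, 0 of the 10 genes was called in that comparison, as without it, and over all probes the count went from 19 to 0. The number of arrays limits the precision. Gene symbols were updated through RefSeq (GRCm38.p6), which gave a symbol to 79.5% of gene probes.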

Additional observations from a re-analysis of the deposited data

How the results depend on the processing

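Of the values for single genes, most kept their direction and their side of the threshold under the alternatives. Values that were not called and stayed so are counted among these. The calls at single probes of the 10 genes against female embryos were less stable. Fgfr1 probe A_52_P668810 stayed called in 3 of 18 other settings in fusion clones and 5 of 18 in injection clones. Fgfr2 probe A_52_P158800 did so in 7 of 18 in fusion clones. In fusion clones against female IVF embryos the number of the 10 genes called was 0, and it was 1 with normexp background correction, with all 4 groups in one fit and with all 6 IVF embryos as controls, and 0 to 1 when each array was left out. In injection clones it was 0, and 2 with normexp, 2 with the strict filter, 1 with 6 IVF controls and 0 to 1 without each array. In the pooled comparison it was 3, and 1 to 3 without each array, with 1 without female embryo 1 or female embryo 3. The 6 pathway genes called in fusion clones became 10 with normexp, 11 with the strict filter, 16 in one fit, 17 with 6 IVF controls and 2 to 7 without each array. The 5 in injection clones became 11 with normexp, 9 with the strict filter, 13 in one fit, 14 with 6 IVF controls, 1 from the table of deposited values, 1 at a floor of 1 and 0 to 6 without each array. Over all probes, the 3079 calls in fusion clones ranged from 1123 to 4332 and the 1205 in injection clones from 160 to 3098 with the block left aside. The cause of these changes was not tested.

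With the replicate number as a block, 0 pathway genes and 0 probes were called in fusion or injection clones against female embryos. The numbers did not pair these samples. Under the block Dusp6 in fusion clones was 0.029 and Spry2 in the pooled comparison was 0.061, and neither was called. In the pooled comparison the calls of Fgfr1 (adjusted p = 0.0649) and of Fgfr2 probe A_52_P158800 (adjusted p = 0.0516) were lost under the block.

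Directions turned for the following values, none of them called. With probes averaged per gene, Spry2 was −0.42 in injection clones and Fgfr2 was −0.12 in male against female embryos. Spry4 in fusion against injection clones was −0.088 with a floor of 1. When each array was left out, Dusp6 in fusion clones ran from −0.65 to 0.029, Spred1 in fusion against injection clones from −1.20 to 0.081, Spry2 in injection clones from −0.068 to 0.30, its probe A_51_P445153 from −1.73 to 0.0018, and Spry2 in the pooled comparison from −0.26 to 0.030. The median over all tested probes was −0.12 in fusion clones and 0.049 in the deposited values, so differences are relative to a centre that depends on the scaling.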
